A study of Mus musculus with 13 samples.

Results

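Messenger RNA of 6 costimulatory receptors of the TNF receptor superfamily was examined in T cells sorted from B16-F10 tumors, a mouse melanoma grown under the skin. The receptors were Tnfrsf4 (OX40), Tnfrsf18 (GITR), Tnfrsf9 (4-1BB), Tnfrsf1b (TNFR2), Tnfrsf25 (DR3) and Cd27. They were chosen by gene symbol from the deposited expression table, in which all 6 were present among 12963 listed genes. All mice carried the Foxp3-EGFP-DTR allele, which places the human diphtheria toxin receptor and a green fluorescent protein under the endogenous Foxp3 gene, and diphtheria toxin (DTx) therefore depletes regulatory T (Treg) cells in them. RNA was sequenced in 13 libraries. Mice given PBS provided Treg cells (the group Treg PBS, n = 3) and, as conventional T (Tconv) cells, CD4 cells (CD4 PBS, n = 2) and CD8 cells (CD8 PBS, n = 2). Mice given DTx provided CD4 Tconv cells (CD4 DTx, n = 3) and CD8 Tconv cells (CD8 DTx, n = 3). The mice were young adults of both sexes. The control Tconv groups therefore came from mice that carried the same allele and kept their Treg cells, and no Treg cells were taken from DTx-treated mice.

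These receptors sit on T cells and are engaged by trimeric ligands on antigen-presenting cells or on other T cells. They bind TRAF adaptor proteins, directly or, for DR3, through TRADD, and feed the NF-kB pathways, which favour survival, division and cytokine production. OX40, GITR and 4-1BB are scarce on resting conventional T cells and appear after activation, whereas CD27 is present on naive cells and is lost as effector cells mature. TNFR2, GITR and OX40 are also known as surface markers of activated Treg cells, and antibodies to several of these receptors have been developed for tumor therapy.

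The sorted groups carried their labelled markers. Foxp3, the Treg lineage factor, lay between 1177.8 and 1896.5 normalized reads in the Treg libraries and between 0 and 12.1 in the other 10. Normalized reads are the deposited values, read counts scaled between libraries, and 1 read was worth between 0.661 and 1.37 of them. Recovered reads per library ranged from 15947556 to 34140486. The CD4 DTx libraries differed in the amount of CD8 T cell transcripts, with Cd8a at 102.9, 710.6 and 1302.4 normalized reads, the last equal to 3.24% of the CD8 DTx mean. The CD8 DTx libraries differed in Cd4, at 413.0, 0 and 40.4 normalized reads, beside 2.43 and 0 in CD8 PBS. The part of this Cd4 in the receptor values was not tested. The replicate 3 library of every group had Y-linked Ddx3y and no Xist, and the other libraries the reverse, so replicate number and sex of the mouse moved together. NK cell marker sums were highest in CD8 PBS 2 (4999.4) and CD8 DTx 2 (8760.0). In bulk libraries such as these, fewer cells expressing a gene and less RNA per cell cannot be told apart.

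Of the 6 genes, 5 lie on mouse chromosome 4 and Cd27 lies on chromosome 6. In the RefSeq annotation of GRCm38.p6, Tnfrsf4 and Tnfrsf18 are adjacent protein-coding genes on the same strand, and Tnfrsf1b is followed by another family member, Tnfrsf8. The windows of the 3 receptors with the largest differences between Treg PBS and CD4 PBS are shown as RefSeq gives them, from 250 bases before to 50 bases after the annotated start, on the strand of the gene. The expression table itself is on an older build (NCBIM37, mm9) and holds no coordinates. Capitals mark a match to the NF-kB consensus.
Tnfrsf4 (chr4:156013445-156013744, + strand): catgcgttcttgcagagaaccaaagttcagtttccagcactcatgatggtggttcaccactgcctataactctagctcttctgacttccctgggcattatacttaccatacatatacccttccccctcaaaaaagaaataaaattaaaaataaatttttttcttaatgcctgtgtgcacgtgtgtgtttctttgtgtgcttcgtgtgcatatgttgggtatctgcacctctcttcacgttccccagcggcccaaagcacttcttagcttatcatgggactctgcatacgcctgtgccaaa
Tnfrsf18 (chr4:156026072-156026371, + strand): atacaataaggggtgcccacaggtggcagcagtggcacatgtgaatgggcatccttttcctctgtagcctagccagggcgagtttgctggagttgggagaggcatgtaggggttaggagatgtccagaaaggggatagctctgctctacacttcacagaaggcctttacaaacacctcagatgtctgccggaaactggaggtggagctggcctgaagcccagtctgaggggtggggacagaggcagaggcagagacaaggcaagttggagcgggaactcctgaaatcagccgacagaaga
Tnfrsf9, second annotated start (chr4:150927749-150928048, + strand): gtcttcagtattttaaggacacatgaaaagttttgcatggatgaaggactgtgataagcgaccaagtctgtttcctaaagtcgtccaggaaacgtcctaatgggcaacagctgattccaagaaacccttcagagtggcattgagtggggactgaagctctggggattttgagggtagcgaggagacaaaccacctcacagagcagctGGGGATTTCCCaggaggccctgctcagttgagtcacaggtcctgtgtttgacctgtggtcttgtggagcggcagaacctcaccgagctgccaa
The 6 genes matched 8 RefSeq windows of 300 bases, since Tnfrsf9 and Tnfrsf25 have more than 1 annotated start. Of these 8 windows, the second of Tnfrsf9 held the NF-kB consensus, where overlapping matches begin at position -43 from the start, and the other 7 did not. The same window held an AP-1 letter pattern, TGANTCA, at position -15 and the RUNX pattern TGTGGT at position 10. The AP-1 pattern was in no other window, the RUNX pattern was in 1 further window, of Tnfrsf25, and the Tnfrsf4 window held none of the patterns searched. Both strands were searched. Among 27025 mouse promoter windows of this length, 4.348% held the NF-kB consensus, 7.933% held TGANTCA and 16.92% held TGTGGT. These were the first listed window of each gene, so windows at further starts were left out of the shares. The NFAT pattern GGAAAA stood in 1 window each of Tnfrsf9, Tnfrsf25, Tnfrsf18 and Cd27 and in 23.62% of the 27025 windows. These are matches of letters in the sequence and no binding was measured.

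Tnfrsf4, the OX40 receptor, had the widest range of the 6. It measured 73550, 61302 and 45931 normalized reads over the Treg PBS libraries, 2106 and 631 in CD4 PBS, 15811, 17143 and 13280 in CD4 DTx, 1140 and 275 in CD8 PBS, and 2815, 1402 and 1906 in CD8 DTx. All Treg libraries were above all others, the 3 CD4 DTx libraries formed a separate second tier, and the CD8 DTx libraries overlapped CD4 PBS. On the scale of group means, Treg PBS was 44.0-fold above CD4 PBS and CD4 DTx was 11.3-fold above it.

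Tnfrsf18, which encodes GITR, had Treg PBS, CD4 DTx and CD8 DTx in the same order of means with a narrower spread. Its normalized reads were 46220, 31696 and 26620 over the Treg PBS libraries, 3287 and 2010 in CD4 PBS, 15229, 11003 and 10015 in CD4 DTx, 3316 and 2310 in CD8 PBS, and 8749, 4666 and 4400 in CD8 DTx. Neither DTx group overlapped its PBS counterpart, and both DTx groups lay below every Treg library. The group means of CD4 PBS and CD8 PBS were 7.60% and 8.07% of the Treg mean, and those of CD4 DTx and CD8 DTx were 34.7% and 17.0%.

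Tnfrsf9, the 4-1BB receptor, placed the CD8 cells above the CD4 cells. It was at 51911, 46807 and 60509 normalized reads over the Treg PBS libraries, 764 and 655 in CD4 PBS, 6537, 2647 and 4338 in CD4 DTx, 3566 and 1504 in CD8 PBS, and 16109, 8102 and 9002 in CD8 DTx. Every CD8 DTx library was above every CD4 DTx library, and both CD8 PBS libraries were above both CD4 PBS libraries. The CD8 DTx mean was 20.9% of the Treg mean and the CD4 DTx mean was 8.49%.

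Tnfrsf1b, which encodes TNFR2, varied least among the 4 receptors that were highest in Treg cells. Its levels were 27891, 21354 and 33485 normalized reads over the Treg PBS libraries, 3702 and 2884 in CD4 PBS, 5586, 8115 and 10417 in CD4 DTx, 6397 and 4281 in CD8 PBS, and 8048, 8707 and 13665 in CD8 DTx. The CD4 DTx and CD8 DTx libraries overlapped each other, and both lay above their PBS counterparts. Tnfrsf25 and Cd27 did not share this order.

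Tnfrsf25, the DR3 receptor for the ligand TL1A, was highest in CD4 Tconv cells. It stood at 428, 844 and 902 normalized reads over the Treg PBS libraries, 2054 and 1362 in CD4 PBS, 1938, 1272 and 1358 in CD4 DTx, 797 and 452 in CD8 PBS, and 241, 227 and 143 in CD8 DTx. The CD4 PBS and CD4 DTx libraries overlapped, and the CD8 DTx libraries were the lowest of all 13. Cd27, the receptor for CD70, measured 12246, 7775 and 9069 normalized reads over the Treg PBS libraries, 5861 and 6937 in CD4 PBS, 3478, 2562 and 2114 in CD4 DTx, 6849 and 6933 in CD8 PBS, and 7354, 6966 and 4668 in CD8 DTx. The CD4 DTx libraries were the 3 lowest for Cd27 and overlapped no other group.

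**Figure D1:**
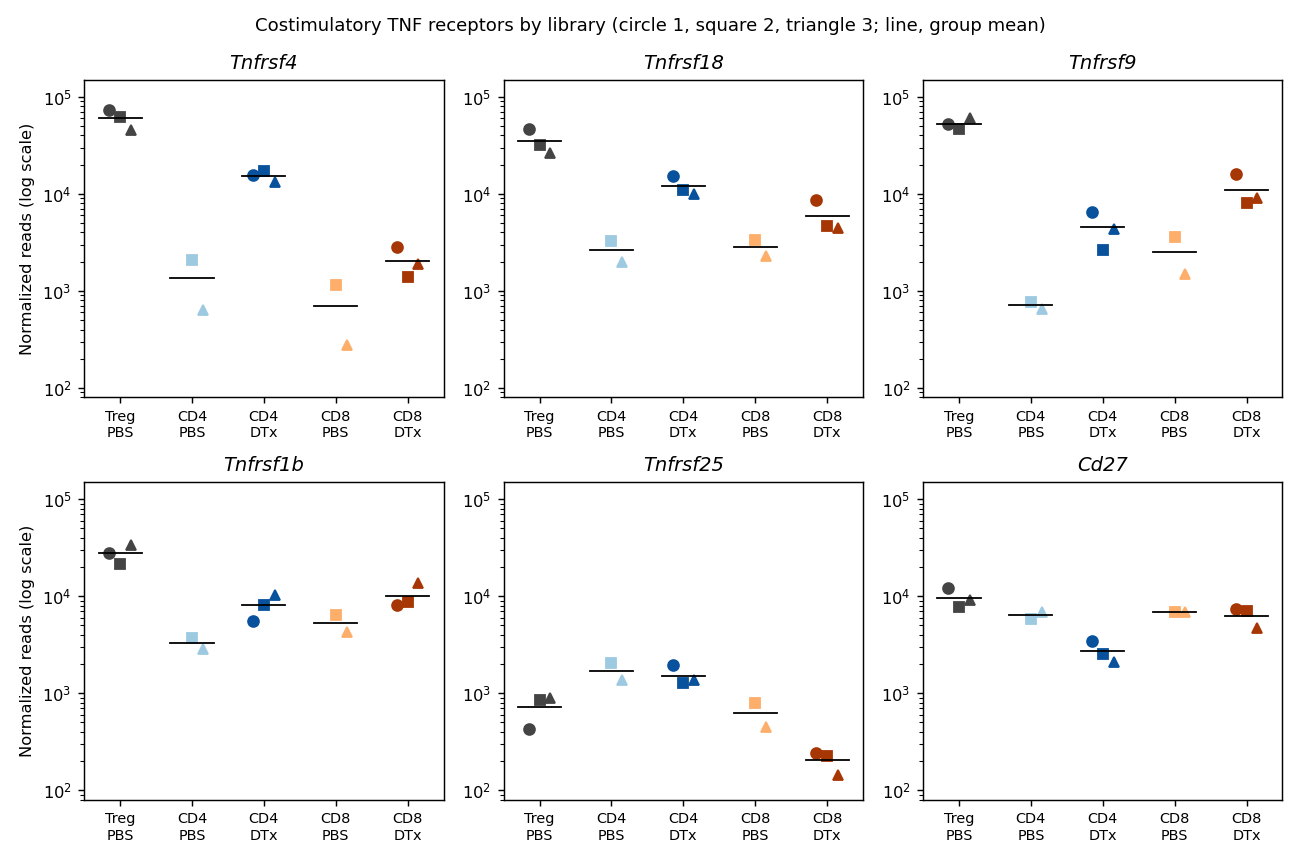
Normalized reads (log scale) of the 6 receptors in each of the 13 libraries, with the 5 groups on the horizontal axis, marker shape giving the replicate number and a line at each group mean. Treg libraries are highest for Tnfrsf4, Tnfrsf18, Tnfrsf9 and Tnfrsf1b, CD8 DTx libraries are lowest for Tnfrsf25, and CD4 DTx libraries are lowest for Cd27.

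Levels of different genes were compared per kilobase of annotated exon sequence. In Treg cells the order of mean levels per kilobase was Tnfrsf4 (44147 normalized reads per kilobase), Tnfrsf18 (22865), Tnfrsf9 (19499), Tnfrsf1b (7223), Cd27 (4165) and Tnfrsf25 (318). In CD4 PBS cells Cd27 led with 2749 normalized reads per kilobase, and Tnfrsf9 was last with 261. CD4 DTx cells had Tnfrsf4 first, at 11290 normalized reads per kilobase, while Cd27, lower than all but Tnfrsf25, was at 1167. In CD8 cells Cd27 led with 2960 normalized reads per kilobase in CD8 PBS, and Tnfrsf9 led with 4067 in CD8 DTx. Exon lengths came from a later annotation (GENCODE M21) than the one used for counting.

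Treg cells were compared with CD4 Tconv cells of the same treatment to ask which receptors mark Treg cells in the tumor while Treg cells are present. Tnfrsf9, Tnfrsf4, Tnfrsf18 and Tnfrsf1b were higher in Treg PBS, Tnfrsf25 was lower, and Cd27 did not pass the test. Of the 6 receptors 5 were called by limma at an adjusted p under 0.05, beside 20.4% of the 12667 genes tested, and of these 4 were higher, beside 13.5% of all genes. The log2 difference, on the log2(normalized reads + 1) scale used throughout, was 6.22 for Tnfrsf9 (SE 0.42, limma adjusted p = 6.74e-06) and 5.68 for Tnfrsf4 (SE 0.57, limma adjusted p = 5.17e-05). For Tnfrsf18 it was 3.72 (SE 0.35, limma adjusted p = 3.77e-05) and for Tnfrsf1b 3.05 (SE 0.32, limma adjusted p = 6.78e-05). These 4 receptors also passed the 4-fold threshold used in the study, which 10.2% of all genes passed. For Tnfrsf4 the size rested on the CD4 PBS libraries, being 4.81 without CD4 PBS 3 and 6.55 without CD4 PBS 2. Tnfrsf25 differed by -1.28 (SE 0.40, limma adjusted p = 0.0404), and this call was lost without Treg PBS 1 (limma adjusted p = 0.134), Treg PBS 2 (0.0552), CD4 PBS 2 (0.273) or CD4 PBS 3 (0.0830). The Cd27 difference was 0.58 with a 95% interval from -0.01 to 1.16 (limma adjusted p = 0.148). Melanocyte marker sums were 726.5 to 1197.2 in the Treg libraries and 434.6 to 447.8 in CD4 PBS, dendritic cell marker sums were 541.9 to 992.3 and 57.5 to 222.8, with 1 of 5 tested markers (Xcr1) called, and the 5 proliferation markers were all higher in Treg cells (Mki67, log2 difference 4.31). The part of these markers in the receptor differences was not tested.

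Against CD8 PBS cells, Treg cells were higher for the same 4 receptors, with log2 differences of 6.72 for Tnfrsf4, 4.51 for Tnfrsf9, 3.61 for Tnfrsf18 and 2.37 for Tnfrsf1b (limma adjusted p between 2.52e-05 and 4.03e-04). This comparison shares the Treg libraries with the preceding one, and 18.7% of all genes were called in it. Tnfrsf25 differed by 0.20 (95% interval -0.67 to 1.07, limma adjusted p = 0.762) and Cd27 by 0.47 (-0.12 to 1.05, limma adjusted p = 0.243). The Tnfrsf4 difference was 7.75 without CD8 PBS 2 and 5.70 without CD8 PBS 3, and that of Tnfrsf9 was 5.13 and 3.89.

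CD4 Tconv cells of DTx-treated and PBS-treated mice were compared to ask how the receptors stood in Tconv cells after Treg cell ablation. Tnfrsf4, Tnfrsf9, Tnfrsf18 and Tnfrsf1b were higher after DTx and Cd27 was lower. Thus 5 of 6 receptors were called, beside 12.7% of all genes, with 4 called higher beside 8.64% and 1 called lower beside 4.08%. Tnfrsf4 rose by 3.73 on the log2 scale (SE 0.57, limma adjusted p = 0.00108), Tnfrsf9 by 2.57 (SE 0.42, limma adjusted p = 0.00172), Tnfrsf18 by 2.21 (SE 0.35, limma adjusted p = 0.00152) and Tnfrsf1b by 1.25 (SE 0.32, limma adjusted p = 0.0226). Cd27 fell by 1.26 (SE 0.27, limma adjusted p = 0.00866), to 0.425 times the CD4 PBS mean. Tnfrsf25 differed by -0.16, with an interval from -1.03 to 0.71 (limma adjusted p = 0.830). Foxp3 was 0, 0 and 1.87 normalized reads in the 3 CD4 DTx libraries. The paper sorted Tconv cells as negative for the Foxp3 reporter, and DTx depletes cells that express it, so low Foxp3 was set by the design. The 5 proliferation markers were also higher after DTx (Mki67, log2 difference 3.22). So were 2 of 5 dendritic cell markers, Itgax (0 in both CD4 PBS libraries, 247.4 to 280.5 normalized reads in CD4 DTx) and Xcr1 (log2 difference 3.58). The other 3 tested were not called and had negative log2 differences (Flt3 -0.58, Zbtb46 -2.19, Siglech -2.25). The median of the list was -0.58. Dendritic cell marker sums were 628.8 to 899.4 in CD4 DTx beside 57.5 to 222.8 without DTx, and Clec9a was 0 in all 13 libraries. Of 9 macrophage and monocyte markers Ly6c2 was called (2.83), and of 2 CD8 markers Cd8a (3.94). The part of these markers in the receptor differences was not tested.

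The calls of Tnfrsf4, Tnfrsf9 and Tnfrsf18 in this comparison were kept when any single library of the compared groups was left out, although the Tnfrsf4 difference was 4.60 without CD4 PBS 2 and 2.86 without CD4 PBS 3. The Tnfrsf1b call was lost without CD4 PBS 2 (limma adjusted p = 0.0701), CD4 PBS 3 (0.201), CD4 DTx 2 (0.0622) or CD4 DTx 3 (0.0684), and the Cd27 call without CD4 PBS 3 (0.0997). Leaving out CD4 DTx 2 and 3, the libraries with the most Cd8a, kept Tnfrsf4, Tnfrsf9 and Tnfrsf18 and lost Tnfrsf1b (0.213) and Cd27 (0.115), with Tnfrsf9 at 3.21, and the 1 CD4 DTx library left was assumed to vary like the other groups. With every replicate 3 library left out, which removed the libraries with Ddx3y and left 1 CD4 PBS library assumed to vary like the rest, Tnfrsf4 was still called (log2 difference 2.97, limma adjusted p = 0.0440) and the other 4 were not (0.118 to 0.224).

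In CD8 Tconv cells the same question gave fewer calls. Tnfrsf9 rose by 2.19 on the log2 scale (SE 0.42, limma adjusted p = 0.00645) and Tnfrsf25 fell by 1.59 (SE 0.40, limma adjusted p = 0.0254). These 2 of 6 receptors were called beside 10.9% of all genes. Tnfrsf4, Tnfrsf18 and Tnfrsf1b had log2 differences of 1.81 (95% interval 0.57 to 3.04, limma adjusted p = 0.0622), 1.03 (0.26 to 1.80, limma adjusted p = 0.0841) and 0.91 (0.22 to 1.61, limma adjusted p = 0.0895). All 3 were higher in each CD8 DTx library than in either CD8 PBS library, a separation that 22.8% of all genes showed. Cd27 differed by -0.15 (95% interval -0.74 to 0.43, limma adjusted p = 0.745). The Tnfrsf9 call was lost without CD8 PBS 3 (log2 difference 1.57, limma adjusted p = 0.135) and the value was 2.81 without CD8 PBS 2. The Tnfrsf25 call was lost without CD8 PBS 2 (limma adjusted p = 0.217), CD8 PBS 3 (0.0738) or CD8 DTx 2 (0.0514). Tnfrsf4 was called without CD8 PBS 2 (log2 difference 2.83, limma adjusted p = 0.0113), and Tnfrsf18 without CD8 DTx 3 (log2 difference 1.21, limma adjusted p = 0.0439). DESeq2 on the recovered reads called Tnfrsf4, Tnfrsf18 and Tnfrsf1b as well (DESeq2 adjusted p between 0.0307 and 0.0391), and called 2060 genes here beside 1377 by limma. A replicate block in limma gave the same 3 calls (limma adjusted p = 0.0354 for Tnfrsf4, 0.0162 for Tnfrsf18 and 0.0425 for Tnfrsf1b). The share of all genes called with the block is not given. The 5 proliferation markers were all higher in CD8 DTx (Mki67, log2 difference 2.92), as were Itgax (4.22) and Xcr1 (2.31) of the 5 dendritic cell markers. The other 3 were not called and had negative log2 differences (Flt3 -2.34, Zbtb46 -1.32, Siglech -3.82). Dendritic cell marker sums were 305.2 to 872.3 in CD8 PBS and 3544.8 to 6402.9 in CD8 DTx, where Itgax alone was 2851.9 to 5785.1. The part of these markers was not tested. Without CD8 PBS 2 and CD8 DTx 2, the libraries highest in NK cell markers, Tnfrsf4 (3.07) and Tnfrsf9 (3.001) were called and Tnfrsf25 was not (limma adjusted p = 0.276).

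**Figure D2:**
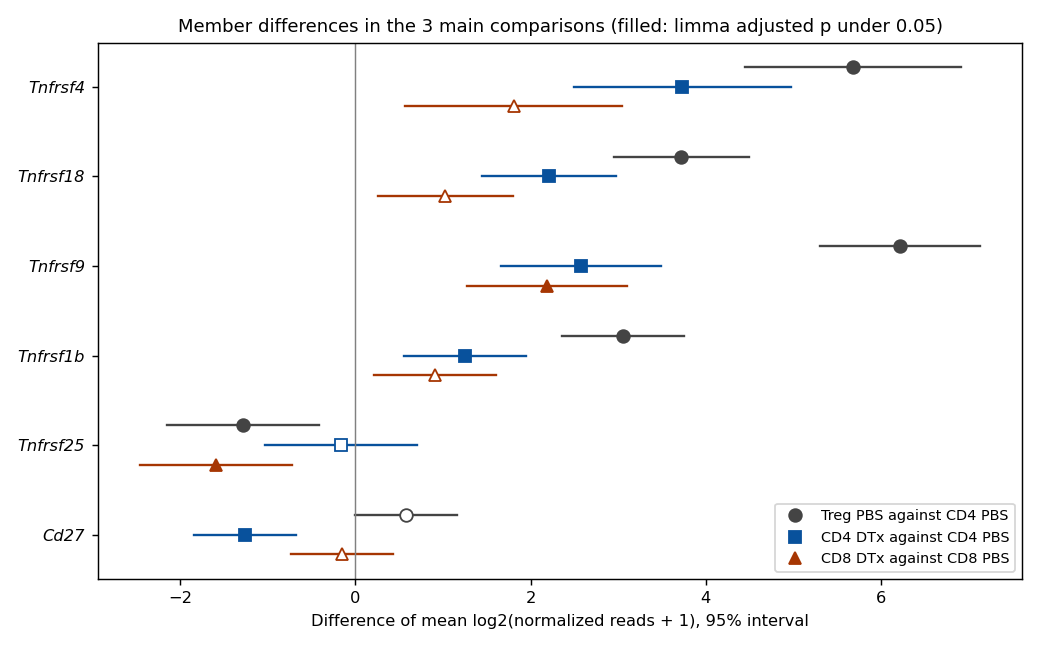
Differences of mean log2(normalized reads + 1) with 95% intervals (horizontal axis) for the 6 receptors (vertical axis) in Treg PBS against CD4 PBS (circles), CD4 DTx against CD4 PBS (squares) and CD8 DTx against CD8 PBS (triangles). Filled markers passed a limma adjusted p of 0.05; Tnfrsf9 is filled on the right in all 3 comparisons, while Cd27 is filled on the left for CD4 DTx and Tnfrsf25 on the left for Treg PBS and CD8 DTx.

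Whether the response to DTx differed between CD4 and CD8 cells was tested with an interaction term. None of the 6 receptors passed it (limma adjusted p between 0.848 and 1), beside 0.0474% of all genes, while 4 had an unadjusted p under 0.05 and 513 of 12667 genes did so overall. edgeR called 4 genes and DESeq2 85 in this test, none of them a receptor of the 6. The CD4 minus CD8 difference of the responses was 1.93 for Tnfrsf4 (95% interval 0.18 to 3.67), 1.18 for Tnfrsf18 (0.10 to 2.27), 1.43 for Tnfrsf25 (0.20 to 2.66) and -1.11 for Cd27 (-1.94 to -0.28). For Tnfrsf9 it was 0.39 (-0.91 to 1.68) and for Tnfrsf1b 0.34 (-0.64 to 1.32). The intervals of Tnfrsf9 and Tnfrsf1b held 0, and those of the other 4 did not.

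The levels reached in the 2 DTx groups were compared directly. Tnfrsf4 was higher in CD4 DTx by 2.97 on the log2 scale (SE 0.51, limma adjusted p = 0.0148) and Tnfrsf25 by 2.91 (SE 0.36, limma adjusted p = 0.00248), and Cd27 was lower, with a difference of -1.22 (SE 0.24, limma adjusted p = 0.0268). These 3 of 6 receptors were called beside 1.64% of all genes. Tnfrsf18 differed by 1.07 (95% interval 0.39 to 1.76, limma adjusted p = 0.139), and it was called when the replicate number entered as a block (limma adjusted p = 0.00600), which these groups allowed. Tnfrsf9 differed by -1.32 (-2.14 to -0.50, limma adjusted p = 0.125, DESeq2 adjusted p = 0.0232) and Tnfrsf1b by -0.34 (-0.96 to 0.28, limma adjusted p = 0.794). The Tnfrsf4 call was lost without CD4 DTx 2 (limma adjusted p = 0.0642) or CD8 DTx 2 (0.0693). The Cd27 call was lost without CD4 DTx 2 (0.102), CD4 DTx 3 (0.105), CD8 DTx 1 (0.0981) or CD8 DTx 2 (0.106). The part of the Cd8a seen in CD4 DTx 2 and 3 was not tested, and leaving both libraries out gave 3.01 for Tnfrsf4 (limma adjusted p = 0.0709) and -0.84 for Cd27 (0.237), with Tnfrsf25 still called.

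The 2 Tconv groups were also compared with Treg cells present. None of the 6 was called in CD4 PBS against CD8 PBS, beside 1.08% of all genes by limma (137 genes, with 827 at an unadjusted p under 0.05, 96 by edgeR and 326 by DESeq2), and 2 of the 6 had an unadjusted p under 0.05. Tnfrsf9 was lower in CD4 PBS by a log2 difference of -1.71 (95% interval -2.71 to -0.71, limma adjusted p = 0.151), which DESeq2 called (adjusted p = 0.00559), and Tnfrsf25 differed by 1.48 (0.52 to 2.43, limma adjusted p = 0.233). Both intervals leave out 0, so these differences were not shown to be absent.

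Both DTx groups were also set against Treg PBS, a contrast in which cell type and treatment differ together. CD4 DTx was below Treg PBS for Tnfrsf9 (log2 difference -3.64, limma adjusted p = 2.47e-04), Tnfrsf4 (-1.95, 0.0361), Cd27 (-1.84, 8.42e-04), Tnfrsf1b (-1.80, 0.00256) and Tnfrsf18 (-1.51, 0.0122), so 5 of 6 were called beside 7.91% of all genes. Tnfrsf25 differed by 1.12 (95% interval 0.34 to 1.90, limma adjusted p = 0.0794, DESeq2 adjusted p = 0.0336). The Tnfrsf4 call was lost when any 1 of the 6 libraries of these groups was left out (limma adjusted p between 0.0561 and 0.121), and the Tnfrsf18 call without Treg PBS 1 (0.0559) or CD4 DTx 3 (0.0512). CD8 DTx was below Treg PBS for Tnfrsf4 (-4.92, limma adjusted p = 1.06e-04), Tnfrsf18 (-2.59, 2.97e-04), Tnfrsf9 (-2.32, 0.00213), Tnfrsf25 (-1.79, 0.00801) and Tnfrsf1b (-1.46, 0.00699), again 5 of 6, beside 8.6% of all genes. Cd27 differed by -0.62 (-1.14 to -0.09, limma adjusted p = 0.163). Each of those 5 calls was kept when any single library of the compared groups was left out.

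The crossed comparisons served to order the groups. CD4 PBS was below CD8 DTx for Tnfrsf9, Tnfrsf1b and Tnfrsf18 and above it for Tnfrsf25 (4 of 6 called, beside 18.6% of all genes), and CD4 DTx was above CD8 PBS for Tnfrsf4 and Tnfrsf18 and below it for Cd27 (3 of 6 called, beside 10.6%). In the former the Tnfrsf18 call was lost without CD4 PBS 2 (limma adjusted p = 0.0566), CD4 PBS 3 (0.321), CD8 DTx 1 (0.131) or CD8 DTx 2 (0.0588) and the Tnfrsf1b call without CD4 PBS 3 (0.0644), and in the latter the Tnfrsf18 and Cd27 calls were lost without CD8 PBS 3 (0.0574 and 0.0766). Placed in order of group means, the neighbours that passed the test were few. For Tnfrsf4, Treg PBS, CD4 DTx and CD8 DTx were each called different from the next, whereas CD8 DTx, CD4 PBS and CD8 PBS were not. For Tnfrsf18, Tnfrsf9 and Tnfrsf1b the step from Treg PBS to the next group was the 1 step between neighbours that limma called without a block. With the block limma also called the Tnfrsf18 steps from CD4 DTx to CD8 DTx (limma adjusted p = 0.00600) and from CD8 DTx to CD8 PBS (0.0162), the latter also called by DESeq2 (0.0307), and DESeq2 called the Tnfrsf9 steps from CD8 DTx to CD4 DTx (0.0232) and from CD8 PBS to CD4 PBS (0.00559). For Tnfrsf25 the step from CD8 PBS down to CD8 DTx passed, and for Cd27 the step from CD8 DTx down to CD4 DTx. DESeq2 also called the Tnfrsf25 step from CD4 DTx to Treg PBS (DESeq2 adjusted p = 0.0336).

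Across the 13 libraries the receptors fell into pairs that varied together. On log2 values Pearson's r was 0.966 for Tnfrsf4 with Tnfrsf18 and 0.930 for Tnfrsf9 with Tnfrsf1b, and the other pairs among these 4 lay between 0.736 and 0.850. Pairs that included Tnfrsf25 or Cd27 lay between -0.376 and 0.402. The 13 points are 5 groups whose members share cell type and treatment, so the coefficients describe these libraries. Taken within a library, where the scaling cancels, the ratio of Tnfrsf9 to Tnfrsf4 reads was between 3.13 and 5.78 in the 5 CD8 libraries and between 0.154 and 1.32 in the 8 Treg and CD4 libraries. The ratio of Tnfrsf4 to Tnfrsf18 reads was 1.59 to 1.93 in Treg PBS and 1.04 to 1.56 in CD4 DTx, and it was 0.314 and 0.641 in CD4 PBS and 0.119 to 0.433 in the CD8 libraries. Among the CD4-lineage groups, CD4 DTx therefore lay between CD4 PBS and Treg PBS in this ratio without overlap.

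**Figure D3:**
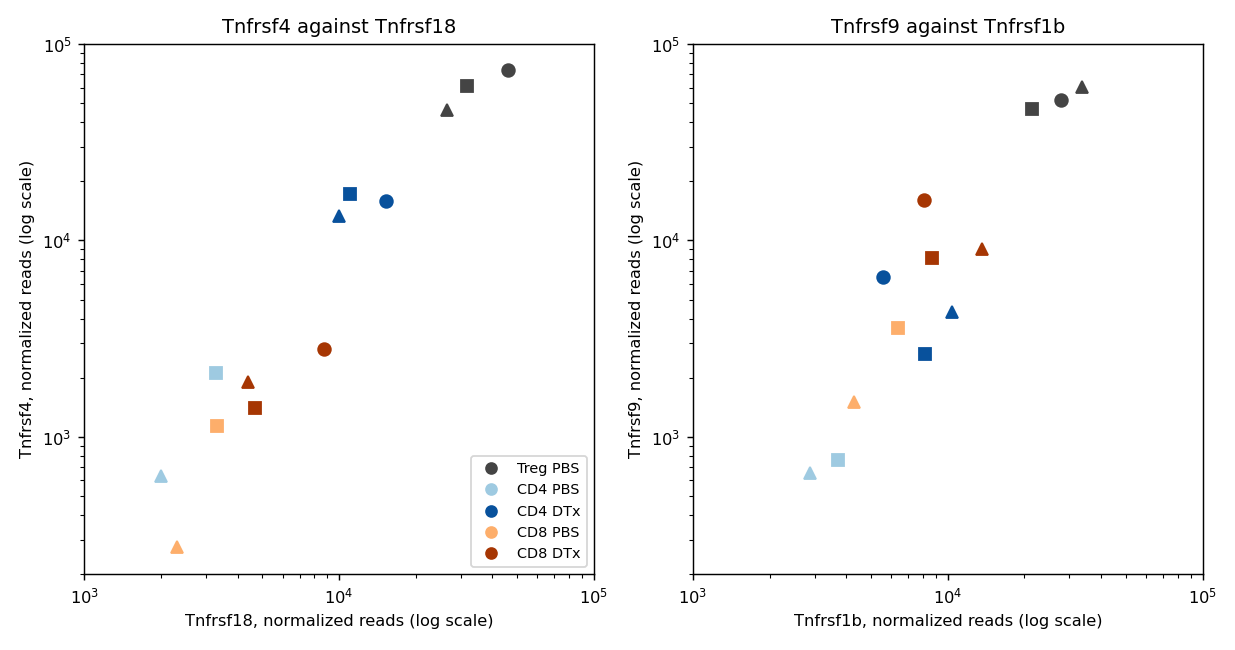
Normalized reads (log scales) of Tnfrsf4 against Tnfrsf18 and of Tnfrsf9 against Tnfrsf1b, with 1 point for each of the 13 libraries, colored by group and shaped by replicate number (circle 1, square 2, triangle 3). CD4 DTx points lie between CD4 PBS and Treg PBS in the first panel, and in the second panel the CD8 DTx points lie above the CD4 DTx points on the Tnfrsf9 axis.

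The genes most like each receptor over the 13 libraries, up to 3 for each, were listed by Pearson's r of log2 values. For Tnfrsf4 they were Ebi3 (r = 0.983), a cytokine subunit of IL-27 and IL-35, the chemokine receptor Ccr8 (0.976) and A430093F15Rik (0.975). For Tnfrsf18 they were Sdf4 (0.980), Ctla4 (0.976), an inhibitory receptor, and Fam132a (0.974). For Tnfrsf9 they were the tubulin Tubb6 (0.983), Idi1 (0.954) of the isoprenoid pathway and Lclat1 (0.953), and for Tnfrsf1b Ergic1 (0.965) and Zfp52 (0.953) were among them. Tnfrsf25 was most like Ramp3 (0.934), the inhibitory receptor Btla (0.864) and Trat1 (0.851), and Cd27 most like Eno3 (0.922), Tox (0.921), a nuclear factor of T cell exhaustion, and Zfp422 (0.912).

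Sdf4 and Fam132a, which encode a calcium-binding protein and a secreted protein, lie close to Tnfrsf4 and Tnfrsf18 in the RefSeq annotation, where the protein-coding order is Fam132a, B3galt6, Sdf4, Tnfrsf4, Tnfrsf18. These neighbours were examined after the likeness had been seen. Sdf4 measured 45499, 32482 and 28019 normalized reads over the Treg PBS libraries, 10665 and 8679 in CD4 PBS, 19351, 17329 and 16045 in CD4 DTx, 9866 and 8908 in CD8 PBS, and 15110, 13674 and 9877 in CD8 DTx. It was higher in Treg PBS than in CD4 PBS by 1.85 on the log2 scale (SE 0.25, limma adjusted p = 3.27e-04) and in CD4 DTx than in CD4 PBS by 0.86 (SE 0.25, limma adjusted p = 0.0387). B3galt6, which lies between Fam132a and Sdf4, had a group mean of 398 normalized reads for Treg PBS and 539 for CD4 PBS (log2 difference -0.45, limma adjusted p = 0.251). Sdf4 lies on the lower-coordinate side of Tnfrsf4 and overlaps it by 16 bases, at the start of Tnfrsf4, which is on the + strand. How the counting treated reads at this overlap is not stated, and they could be assigned to either gene. The ratio of Tnfrsf4 to Sdf4 reads was 1.62 to 1.89 in Treg PBS and 0.0308 and 0.116 in CD8 PBS. The part of reads at the overlap in the values of either gene was not tested. No protein-coding neighbour examined overlapped Tnfrsf18 or Cd27. Other kinds of transcript were not examined, and reads of any that overlap these genes could not be separated.

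Of the 7 ligands of these receptors, 6 were listed in the table, and Tnfsf18 was not among them. Tnfsf9, the ligand of 4-1BB, was at 506, 466 and 417 normalized reads over the Treg PBS libraries, 45.1 and 48.2 in CD4 PBS, 998, 555 and 491 in CD4 DTx, 64.4 and 62.6 in CD8 PBS, and 585, 411 and 304 in CD8 DTx. The Treg and both DTx groups were all above both PBS Tconv groups. It was higher by 3.28 in Treg PBS against CD4 PBS, by 3.77 in CD4 DTx against CD4 PBS and by 2.70 in CD8 DTx against CD8 PBS on the log2 scale (limma adjusted p = 1.74e-04, 1.52e-04 and 0.00174). Cd70, the ligand of CD27, was at 223, 155 and 105 normalized reads over the Treg PBS libraries, 0 in both CD4 PBS libraries, and 109, 26.6 and 94.8 in CD4 DTx. Against the floor of 3 reads per library it was at least 39.2-fold higher in Treg PBS and at least 18.8-fold higher in CD4 DTx than in CD4 PBS, and both comparisons were called (limma adjusted p = 0.00877 and 0.0312). In CD8 cells Cd70 was between 0 and 41.3 normalized reads. Tnf and Lta, ligands of TNFR2, were at least 195.6 and 312.9 normalized reads in every library and were not called in the 3 comparisons, with log2 differences between -0.09 and 0.71. Tnfsf4, the OX40 ligand, and Tnfsf15, the DR3 ligand, were scarce, with highest values of 135.9 and 64.5 normalized reads. The ligands called higher were thus 2 of 6 for Treg PBS (33.3%, beside 20.4% of all genes called). For CD4 DTx they were 2 (33.3%, beside 12.7%) and for CD8 DTx 1 (16.7%, beside 10.9%), and none was lower. In CD4 DTx against CD4 PBS edgeR called 1 of the ligands and DESeq2 2, beside 1395 and 2324 of all genes.

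Other receptors of the superfamily moved in both directions. Of 16 tested, 3 were higher and 3 lower in Treg PBS against CD4 PBS (37.5%, beside 20.4% of all genes called). In CD4 DTx against CD4 PBS 2 were higher and 3 lower (31.2%, beside 12.7%). In CD8 DTx against CD8 PBS 1 was lower (6.25%, beside 10.9% of all genes called). In Treg PBS against CD4 PBS edgeR called 5 of the 16 and DESeq2 7, beside 2135 and 3270 of all genes. The median log2 difference in Treg PBS against CD4 PBS was -0.21, beside 0.01 for all genes and 3.39 for the 6 costimulatory receptors. Tnfrsf8 (CD30), the neighbour of Tnfrsf1b, was 235, 700 and 486 normalized reads over the Treg PBS libraries, 0 in both CD4 PBS libraries and 42.1, 41.9 and 67.2 in CD4 DTx, which is at least 116-fold and at least 12.3-fold above CD4 PBS against the floor of 3 reads. Tnfrsf23, a decoy receptor for TRAIL, was 0 and 21.1 normalized reads in CD4 PBS and 901, 493 and 254 in CD4 DTx (limma adjusted p = 0.00137). Tnfrsf26 was lower in Treg PBS (log2 difference against CD4 PBS -2.42, limma adjusted p = 2.21e-04). Tnfrsf1a, the death domain receptor that shares TNF with TNFR2, was lower in CD4 DTx than in CD4 PBS (log2 difference -1.27, limma adjusted p = 0.00387) and in Treg PBS (-0.72, limma adjusted p = 0.0493), while Tnfrsf1b was higher in both.

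Of 8 tested ligands of other family receptors, limma called 5 higher in CD4 DTx (62.5%, beside 12.7% of all genes called). It called 5 higher in CD8 DTx (62.5%, beside 10.9%), and none lower in either. In CD4 DTx edgeR called 4 of the 8 and DESeq2 5, beside 1395 and 2324 of all genes. In CD8 DTx they called 5 and 6, beside 1148 and 2060 of all genes. The medians were 1.96 and 1.80 on the log2 scale, beside -0.04 and -0.03 for all genes. Fasl, the death ligand of cytotoxic cells, was 630, 503 and 458 normalized reads over the Treg PBS libraries, 1066 and 1028 in CD4 PBS, 7380, 3760 and 4259 in CD4 DTx, 1505 and 576 in CD8 PBS, and 14066, 10837 and 7772 in CD8 DTx. The Treg libraries and the CD8 PBS 3 library held the lowest Fasl values, and each DTx group lay above its PBS counterpart. Its log2 differences after DTx were 2.23 in CD4 (limma adjusted p = 0.00293) and 3.50 in CD8 cells (limma adjusted p = 4.96e-04). Cd40lg, which licenses dendritic cells, was lower in Treg PBS (log2 difference against CD4 PBS -3.57, limma adjusted p = 1.15e-04) and higher in CD8 DTx than in CD8 PBS by 2.94 (limma adjusted p = 0.00135). Tnfsf8 (CD30 ligand) was also lower in Treg PBS (-2.86, limma adjusted p = 0.00403), with a log2 difference of -1.63 in CD8 DTx against CD8 PBS (limma adjusted p = 0.0877) that DESeq2 called (adjusted p = 0.0157). Ltb, which encodes lymphotoxin beta, had log2 differences of -0.89 and -0.50 after DTx in CD4 and CD8 cells (limma adjusted p = 0.113 and 0.360). Tnfsf10 (TRAIL) was higher in all 3 comparisons, by 1.44, 1.75 and 1.25.

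Among the TRAF adaptors, which bind the receptor tails, Traf1 stood out in Treg cells. It measured 14246, 9871 and 13241 normalized reads over the Treg PBS libraries, 3863 and 3708 in CD4 PBS, 8815, 5357 and 6968 in CD4 DTx, 5342 and 5331 in CD8 PBS, and 6410, 4337 and 6725 in CD8 DTx. Its log2 difference was 1.70 in Treg PBS against CD4 PBS (limma adjusted p = 6.43e-04), 0.87 in CD4 DTx against CD4 PBS (limma adjusted p = 0.0429) and 0.10 in CD8 DTx against CD8 PBS (limma adjusted p = 0.823). Traf2 was higher (0.50, limma adjusted p = 0.0494) and Traf5 lower (-0.92, limma adjusted p = 0.0190) in Treg PBS against CD4 PBS. limma called Traf3, Traf4, Traf6 and Traf7 in none of the 3 comparisons (DESeq2 called Traf7 in Treg PBS against CD4 PBS, adjusted p = 0.0156), where their log2 differences lay between -0.93 and 0.58. Of the 7 adaptors, limma thus called 2 higher and 1 lower in Treg cells (42.9%, beside 20.4% of all genes called). There edgeR called 2 of the 7 and DESeq2 4, beside 2135 and 3270 of all genes. In CD4 DTx 1 was higher (14.3%, beside 12.7%). None was called in CD8 DTx, beside 10.9% of all genes (1 at an unadjusted p under 0.05, 0 by edgeR and 0 by DESeq2).

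NF-kB subunits and inhibitors were higher in Treg cells for 5 of 11 genes and lower for none (45.5% called, beside 20.4% of all genes). In that comparison edgeR called 4 of the 11 and DESeq2 5, beside 2135 and 3270 of all genes. The median log2 difference of the 11 genes was 0.78, beside 0.01 for all genes. Bcl3, an atypical nuclear member of the IkB family, was higher by 1.17 (limma adjusted p = 0.00696), Nfkb2, which encodes the p100 precursor of the alternative pathway, by 1.40 (limma adjusted p = 0.0124), and Nfkbie, which encodes a cytoplasmic inhibitor, by 0.87 (limma adjusted p = 0.0148). Nfkb1, the precursor of the p50 subunit, was highest in CD4 DTx. It was 2044, 2835 and 2550 normalized reads over the Treg PBS libraries, 1147 and 1462 in CD4 PBS, 5589, 6357 and 4243 in CD4 DTx, 1000 and 1068 in CD8 PBS, and 2083, 2201 and 1366 in CD8 DTx. The CD4 DTx libraries were above all others, with log2 differences of 2.04 against CD4 PBS (limma adjusted p = 3.48e-04) and 1.12 against Treg PBS (limma adjusted p = 0.0114). It was the 1 gene of the 11 called in CD4 DTx against CD4 PBS (9.09%, beside 12.7% of all genes). In CD8 DTx against CD8 PBS limma called none, beside 10.9% of all genes (3 at an unadjusted p under 0.05, 0 by edgeR and 2 by DESeq2). There Nfkb1 differed by 0.83 (limma adjusted p = 0.0576).

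Proximal signalling genes and ubiquitin ligases gave 3 higher and 3 lower of 23 in Treg PBS against CD4 PBS (26.1%, beside 20.4% of all genes), none called by limma in CD4 DTx against CD4 PBS (4 at an unadjusted p under 0.05, 0 by edgeR and 2 by DESeq2), and 3 higher and 2 lower in CD8 DTx against CD8 PBS (21.7%, beside 10.9%). In the first comparison edgeR called 4 and DESeq2 7, beside 2135 and 3270 of all genes. In the last they called 4 and 6, beside 1148 and 2060 of all genes. Tnip3, a partner of the NF-kB inhibitor A20, was higher in Treg PBS against CD4 PBS (1.62, limma adjusted p = 0.0290) and in CD8 DTx against CD8 PBS (2.75, limma adjusted p = 0.00370). Ikbkb, which encodes a catalytic IKK subunit, was lower in the same comparisons, with log2 differences of -0.82 (limma adjusted p = 0.0158) and -1.09 (limma adjusted p = 0.00632). Tab2, an adaptor of the kinase TAK1, was higher in them by 1.28 (limma adjusted p = 0.0151) and 1.54 (limma adjusted p = 0.0105), and the deubiquitinase gene Otulin was higher in CD8 DTx by 0.84 (limma adjusted p = 0.00777).

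**Figure D4:**
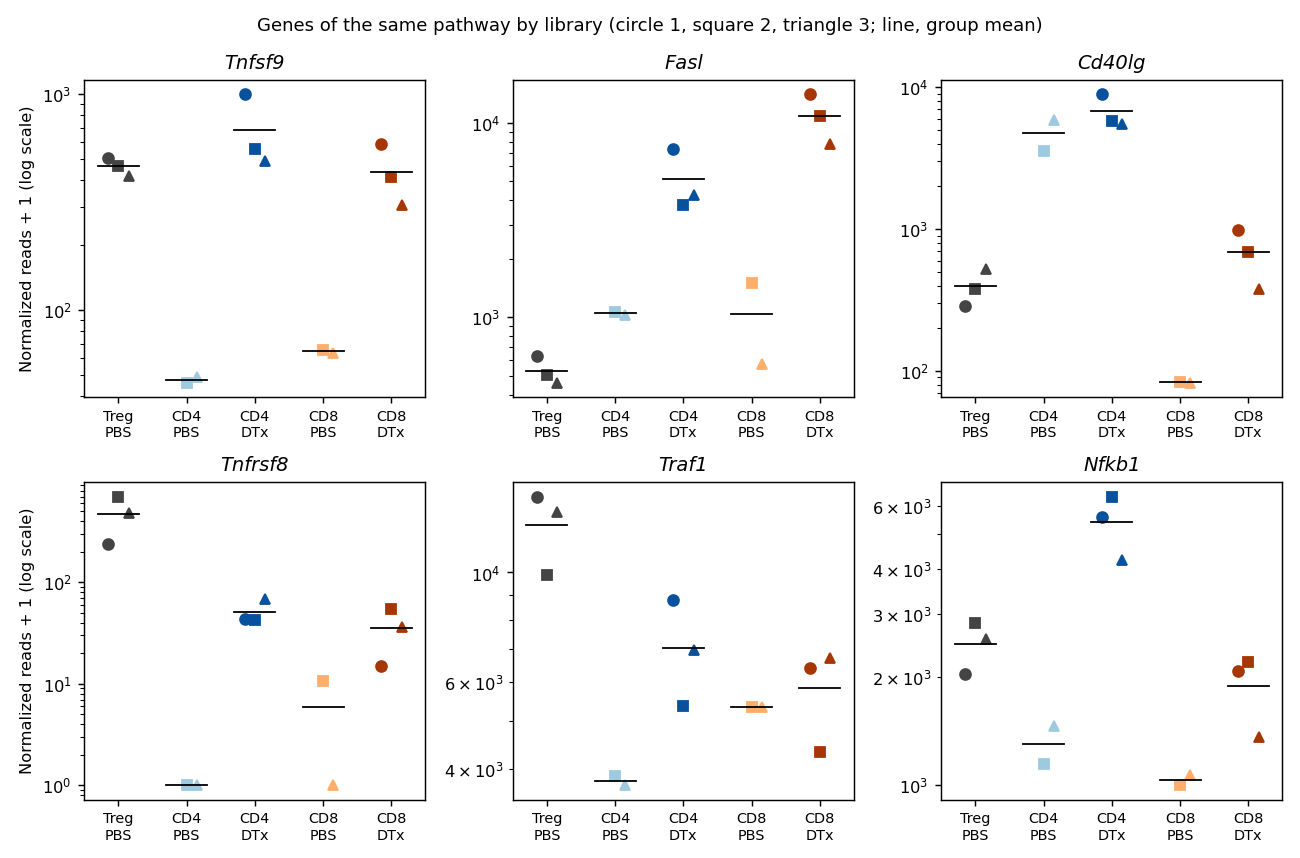
Normalized reads plus 1 (log scale, a separate range in each panel) of Tnfsf9, Fasl, Cd40lg, Tnfrsf8, Traf1 and Nfkb1 in each of the 13 libraries, with groups on the horizontal axis, marker shape giving the replicate number and a line at each group mean. Tnfsf9 is high in Treg PBS and both DTx groups, Fasl is highest in CD8 DTx, Tnfrsf8 and Traf1 are highest in Treg PBS, and Nfkb1 is highest in CD4 DTx.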

How the data were processed

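RNA was sequenced from 13 libraries of sorted intratumoral T cells in 5 groups taken from the labels. According to the labels and the paper's methods, the authors prepared low-input SMART-type libraries, trimmed adaptors with Cutadapt, aligned reads with hisat2 to NCBIM37 (mm9) and kept uniquely mapped reads. The strand setting, read counter and gene filter are not given in the sources used here. The authors deposited a normalized signal per gene and library, named FPM. Within each library 100% of these values were whole multiples of 1 step (within 0.01 of a read), so they are read counts divided by 1 factor per library, and they are called normalized reads. The tests had been planned for FPM values, and the planned pseudocount (1) and minimum (10) stayed in use. Whole reads were recovered for count tests. A detection floor of 3 reads came to between 1.98 and 4.10 normalized reads and covers counting error only, since the labels name no molecular identifiers.

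The 12667 of 12963 genes that reached 10 normalized reads in 2 or more libraries were fitted on log2(value + 1) with limma 3.58.1 (R 4.3.3), with a mean for each group over all 13 libraries, an intensity trend and Benjamini-Hochberg adjustment over all genes tested. A call means an adjusted p under 0.05. All 6 receptors passed the filter. The paper describes biological replicates taken on separate days. Neither it nor the labels tie a replicate number to a day or a mouse, so p-values measure the spread between these libraries. Replicates differed beyond sampling noise. Alternatives were edgeR 4.0.16 and DESeq2 1.42.0 on recovered reads, other pseudocounts, no filter, TMM scaling, a fit to the compared groups only, a 4-fold threshold, leaving out libraries and a replicate block. Same-numbered libraries of CD4 DTx and CD8 DTx deviated together (r = 0.360, 0.207 and 0.589), so the numbers were taken to pair those groups, from the data and not from a label. In no other comparison with 3 pairs was every r above 0.1. The script was tested on simulated data.

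The receptors, gene lists and tests were chosen with earlier results of these data known. Named genes were the 6 receptors, their listed ligands, all TRAF genes, up to 4 genes with the smallest adjusted p from each further list, and the 3 genes most like each receptor, of which 1 is not reported here. Neighbouring genes were added after their values were seen. Marker lists served as checks of the sorts. Per-kilobase levels used GENCODE M21 exon lengths.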

Additional observations from a re-analysis of the deposited data

How the results depend on the processing

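The limits are few libraries (2 or 3 a group), replicate 3 as the only library with Ddx3y in each group, and unequal Cd8a, Cd4, NK cell marker, Itgax or Xcr1 transcripts. Of 1110 member values recomputed, 980 kept their direction and side of the threshold, 94 lost a call, 16 gained one and 20 changed sign. The calls of Tnfrsf4, Tnfrsf9, Tnfrsf18 and Tnfrsf1b in Treg PBS against CD4 PBS were kept in every setting run. TMM scaling moved the median of all genes by at most 0.0447 on the log2 scale. Where a cause is not given by the setting itself, the cause was not tested.

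Receptors called of 6 were as follows. In CD8 DTx against CD8 PBS (2 as reported) DESeq2 called 5, a fit to the compared groups 0 and the 4-fold threshold 1. Over all genes limma, edgeR and DESeq2 called 1377, 1148 and 2060 in that comparison. In CD4 DTx against CD4 PBS (5 as reported) the fit to the compared groups called 3 and the 4-fold threshold 3, which called 1 in CD4 DTx against Treg PBS (5), 3 in CD8 DTx against Treg PBS (5) and 2 in CD4 PBS against CD8 DTx (4). DESeq2 called 1 in CD4 PBS against CD8 PBS (0). With the replicate block CD8 DTx against CD8 PBS had 5 called, in groups whose same-numbered libraries had r = 0.0849 and -0.0050, and CD4 DTx against CD8 DTx had 4 in place of 3. The block changed 2 further calls, of Tnfrsf25 in CD4 DTx against CD8 PBS and of Cd27 in CD8 DTx against Treg PBS, and no count by over 1.5 times elsewhere. Shares of all genes called are not given for the block, the fit to the compared groups or the libraries left out. Nor are they given for the 4-fold threshold in these comparisons. Counts of receptors under those settings therefore have no share of all genes to be read against. Over all genes, limma, edgeR and DESeq2 called 208, 131 and 520 in CD4 DTx against CD8 DTx, 137, 96 and 326 in CD4 PBS against CD8 PBS, 1002, 742 and 1543 in CD4 DTx against Treg PBS and 6, 4 and 85 in the interaction.

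Leaving out 1 library at a time, the counts ranged from 3 to 5 in CD4 DTx against CD4 PBS, 0 to 3 in CD8 DTx against CD8 PBS, 3 to 4 in CD4 DTx against Treg PBS, 2 to 4 in CD4 PBS against CD8 DTx, 1 to 3 in CD4 DTx against CD8 DTx and 1 to 3 in CD4 DTx against CD8 PBS. Where this left 1 library in a group, it was assumed to vary like the others. The next 3 settings were chosen after seeing the data. Without every replicate 3 library the counts were 1 in CD4 DTx against CD4 PBS, 0 in CD8 DTx against CD8 PBS, 0 in CD4 DTx against Treg PBS, 1 in CD8 DTx against Treg PBS, 0 in CD4 DTx against CD8 DTx, 2 in CD4 PBS against CD8 DTx and 1 in CD4 DTx against CD8 PBS. Without the CD4 DTx libraries highest in Cd8a they were 3 against CD4 PBS, 3 against Treg PBS and 1 against CD8 DTx. Without the CD8 libraries highest in NK cell markers no count moved by over 1.5 times.

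Signs changed only in values not called. Leaving out 1 library, Cd27 in CD8 DTx against CD8 PBS ranged from -0.273 to 0.0548, in CD4 PBS against CD8 PBS from -0.23 to 0.0098 and in CD4 PBS against CD8 DTx from -0.17 to 0.16, Tnfrsf25 in CD4 DTx against CD4 PBS from -0.46 to 0.14 and in Treg PBS against CD8 PBS from -0.21 to 0.61, Tnfrsf18 in CD4 PBS against CD8 PBS from -0.46 to 0.25, Tnfrsf4 in CD4 PBS against CD8 DTx from -1.63 to 0.10, and the Tnfrsf9 interaction from -0.24 to 1.01. With edgeR Cd27 in CD4 PBS against CD8 DTx was -0.0062. Without every replicate 3 library, Cd27 was 0.064 in CD8 DTx against CD8 PBS and -0.29 in CD4 PBS against CD8 DTx, Tnfrsf25 was -0.41 in Treg PBS against CD8 PBS and Tnfrsf4 was 0.084 in CD4 PBS against CD8 DTx. Without the CD8 libraries highest in NK cell markers, Tnfrsf18 was 0.15 in CD4 PBS against CD8 PBS and the interactions of Tnfrsf9 and Tnfrsf1b were -0.43 and -0.040. Without the CD4 DTx libraries highest in Cd8a, Tnfrsf25 was 0.21 in CD4 DTx against CD4 PBS and the Tnfrsf1b interaction was -0.14.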
